A study of Homo sapiens with 12 samples.

Results

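The genes described here encode 41 lysosomal enzymes, membrane proteins and regulators: the cathepsins and other acid hydrolases, the lipid-handling proteins, the precursors prosaposin and progranulin, LAMP1 and LAMP2, ion channel and proton pump components, and the transcription factors TFEB and TFE3. They were taken by gene symbol from a named list, and all 41 were found among the 60624 gene rows shared by the deposited count tables. Levels were measured by bulk RNA-seq in 12 libraries of islet cells grown from expandable pancreatic progenitors (ePPs) that derive from MEL1, a human embryonic stem cell line. Cells were collected at R6d8, read here as day 8 in the medium named R6. R6 is DMEM with B27, BSA, zinc sulfate, heparin, 616452, T3, LDN-193189, Compound E, vitamin C and forskolin.

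The 4 groups held 3 libraries each: CLEC16A knockout (KO, titled C16-KO) with its own wild type (WT), and NKX2-2 KO (titled N2-KO) with its own WT. Both KO groups and both WT groups share the MEL1 background, the feeder-based ePP culture and the R6 medium. No clone is named in the sample titles, and an effect of the knockout cannot be told apart from other differences of the line that carries it. Whether replicates are separate cultures is not stated, and a p-value therefore reflects only the variation among these libraries, possibly technical.

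Lysosomal hydrolases are made as precursors, tagged with mannose 6-phosphate in the Golgi and carried to an acidic compartment that the vacuolar proton pump (V-ATPase) keeps at low pH. There they break down proteins, glycans and lipids delivered by endocytosis and autophagy, and inherited loss of single members causes lysosomal storage diseases. In beta cells lysosomes also degrade insulin granules. TFEB and TFE3 bind a palindromic E-box in the promoters of many lysosomal genes, the CLEAR element, and CLEC16A is known as an endolysosomal protein with a role in mitophagy. NKX2-2 is a homeodomain transcription factor of islet cells.

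The E-box is shown first because TFEB and TFE3, which are known to bind it, are among the members. RefSeq promoters (GRCh38.p14, 250 bases before to 50 after the start site) were available for 31 of the 41 genes, with 39 start sites. The letters TCACGTG, searched on both strands, lay in 28.2% of these 39 promoters and in 3.71% of all 35116 promoters in the table. The core CACGTG, which every TCACGTG contains, lay in 28.2% of the 39 and in 7.26% of all. The longer palindrome TCACGTGA, which contains both, lay in 17.9% of the 39 and in 0.980% of all. TCACGTG was found for 10 genes: ARSB, ATP6V0D1, CLN3, CTSA, CTSD, CTSF, GAA, LAMP1, MCOLN1 and NEU1. The promoters of CTSA (chr20:45891085-45891384), LAMP1 (chr13:113296989-113297288), MCOLN1 (chr19:7522374-7522673) and GAA (chr17:80101331-80101630), all on the plus strand, are printed since each holds TCACGTGA and the genes differ in their response below. Capitals mark each copy of TCACGTG on either strand.
CTSA: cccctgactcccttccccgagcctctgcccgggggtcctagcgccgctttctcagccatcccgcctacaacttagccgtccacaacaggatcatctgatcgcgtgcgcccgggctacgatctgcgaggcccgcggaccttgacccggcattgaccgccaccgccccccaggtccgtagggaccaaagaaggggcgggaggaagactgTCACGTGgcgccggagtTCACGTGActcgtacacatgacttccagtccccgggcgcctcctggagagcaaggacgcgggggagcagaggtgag
LAMP1: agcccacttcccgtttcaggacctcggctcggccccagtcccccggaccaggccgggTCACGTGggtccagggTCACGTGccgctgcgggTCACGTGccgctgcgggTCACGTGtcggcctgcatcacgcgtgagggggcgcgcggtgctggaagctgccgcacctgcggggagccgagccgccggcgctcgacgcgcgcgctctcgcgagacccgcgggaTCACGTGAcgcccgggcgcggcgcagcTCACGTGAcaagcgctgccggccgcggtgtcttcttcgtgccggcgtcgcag
MCOLN1: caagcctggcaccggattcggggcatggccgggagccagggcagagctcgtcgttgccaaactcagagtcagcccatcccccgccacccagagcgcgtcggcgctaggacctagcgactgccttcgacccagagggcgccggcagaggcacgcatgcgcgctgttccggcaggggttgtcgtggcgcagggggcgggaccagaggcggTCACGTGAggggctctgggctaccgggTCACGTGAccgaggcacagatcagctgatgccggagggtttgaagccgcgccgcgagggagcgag
GAA: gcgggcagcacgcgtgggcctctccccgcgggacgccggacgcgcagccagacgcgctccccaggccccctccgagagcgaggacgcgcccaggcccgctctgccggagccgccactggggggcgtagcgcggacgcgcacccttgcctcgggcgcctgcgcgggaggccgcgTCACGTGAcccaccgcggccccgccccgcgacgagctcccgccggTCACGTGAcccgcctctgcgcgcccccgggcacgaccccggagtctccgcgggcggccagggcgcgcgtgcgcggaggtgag
The LAMP1 promoter holds 6 copies, and the other 3 promoters hold 2 copies each. A match of letters is a description and not evidence of binding.

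Library depth was 31364272 to 33763795 counts in the CLEC16A experiment and 16157481 to 20649976 counts in the NKX2-2 experiment. Replicates varied beyond sampling noise in every pair, and NKX2-2 WT replicate 3 stood apart from the other 2 libraries of its group (chi-square over degrees of freedom of 17.0 with each, against 3.84 between them). In NKX2-2 KO, replicates 1 and 3 were the farthest apart (25.3), with replicate 2 at 10.5 from replicate 1 and 12.5 from replicate 3. Transcripts of the targeted genes do not check the labels. CLEC16A was at 35.4, 38.0 and 36.8 CPM (counts scaled to library size) in CLEC16A KO libraries, against 36.2, 30.1 and 30.8 CPM in their WT. NKX2-2 was at 91.9, 68.0 and 68.3 CPM in NKX2-2 KO libraries, against 95.4, 96.6 and 93.4 CPM in their WT. Neither passed the test in its own experiment (adjusted p = 0.0949 for CLEC16A and 0.0610 for NKX2-2, edgeR), so the groups are the libraries so labelled. NKX2-2 itself fell in CLEC16A KO libraries, by 0.93 on the log2 scale (SE 0.07, adjusted p = 3.53e-10). The label was checked against marker lists. In the NKX2-2 experiment 8 liver markers summed to 10026 to 12333 CPM in KO and 10002 to 11553 CPM in WT libraries, more than the 10 islet endocrine markers (1117 to 1181 CPM in KO and 3385 to 3874 CPM in WT libraries, not corrected for length). In CLEC16A KO libraries the liver sum (16583 to 18267 CPM) overlapped the islet sum (14565 to 16873 CPM). CLEC16A WT libraries had 6506 to 6805 CPM for liver and 27905 to 30762 CPM for islet markers. No islet marker was at 0 throughout a group, which also holds for the liver and intestine lists. These are bulk samples, in which fewer cells of a type and less RNA per cell cannot be told apart.

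Levels are compared between genes on the deposited TPM (transcript abundances corrected for length and scaled to a fixed total). PSAP, the precursor of the saposin activators of sphingolipid breakdown, led in all 4 groups, at 953 ± 47.0 TPM in CLEC16A KO and 752 ± 25.9 TPM in CLEC16A WT libraries (SD, n = 3). In the NKX2-2 experiment it was at 387 ± 41.04 TPM in KO and 387 ± 3.14 TPM in WT libraries. CTSB, CTSD and NPC2 were among the next members in each group, and in CLEC16A WT libraries CTSD and CTSB did not differ beyond their spread (400.2 ± 5.13 and 381 ± 19.4 TPM). Relative to the median gene, counts for TPM and length in that experiment were 0.389 for CTSD and 0.675 for CTSB. Their near-equal level thus rests on the deposited TPM. TFEB and CTSK stood at the low end of the members detected, at 4.503 ± 0.831 and 5.02 ± 1.10 TPM in CLEC16A KO libraries. CTSF, a cysteine cathepsin, had 0 to 2 counts per library and is listed at or near 0 throughout. Of neighbours in the order of mean TPM, 24 of 40 overlapped in CLEC16A KO and 27 of 40 in CLEC16A WT libraries, so most single ranks are not resolved. TPM levels are not comparable between the experiments, since the listed genes held 99.7% to 99.8% of the full TPM total in CLEC16A libraries and 41.4% to 47.2% in NKX2-2 libraries.

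**Figure D1:**
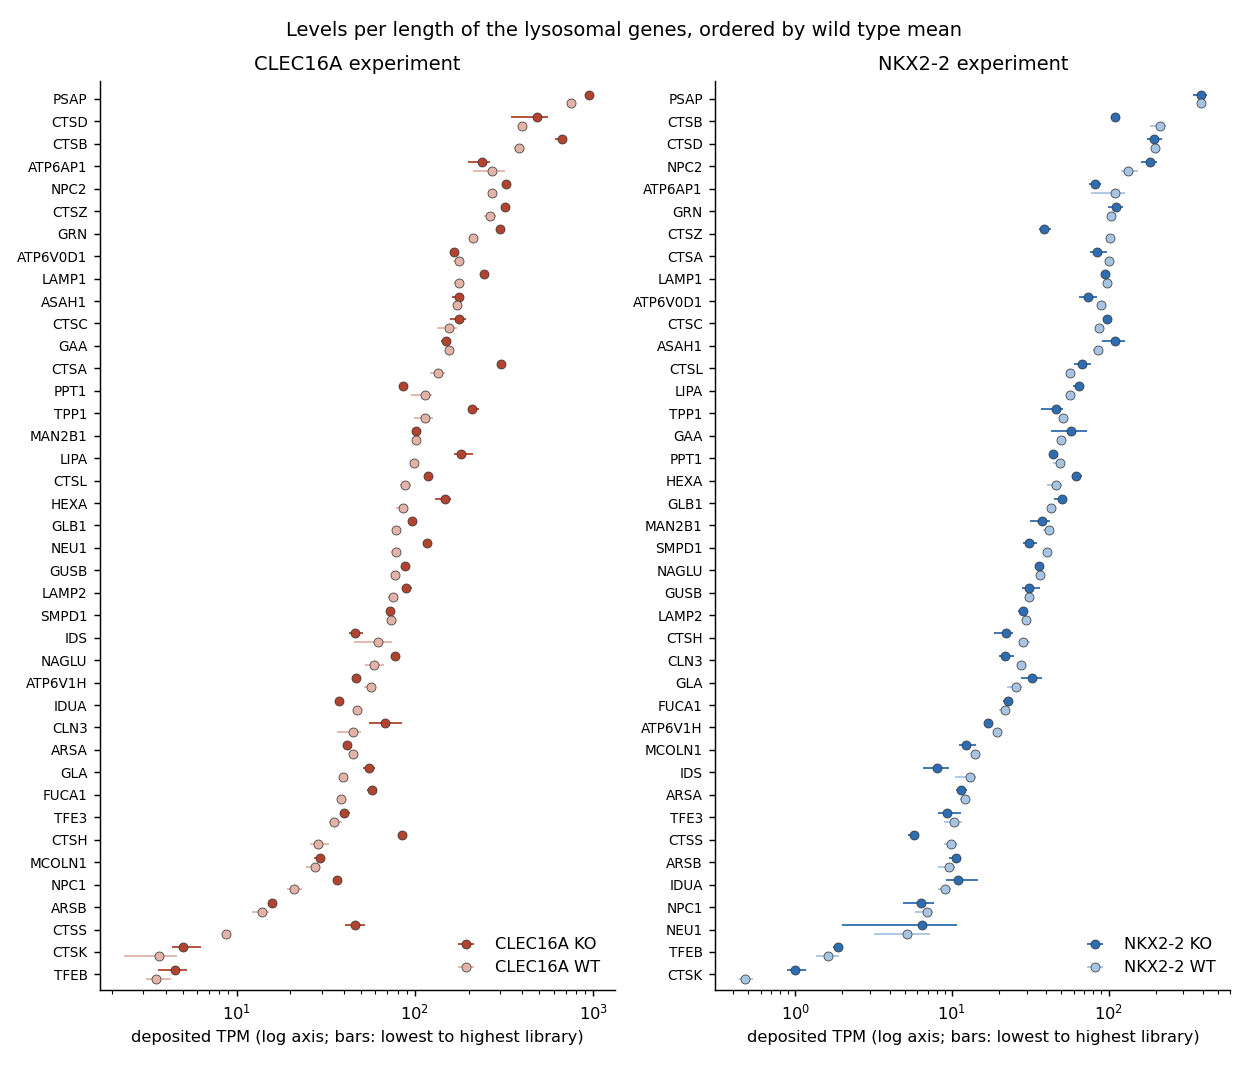
Deposited TPM of the lysosomal genes (log axis) in KO (dark) and WT (pale) libraries of each experiment, with points at the mean of 3 libraries, bars from the lowest to the highest library, and CTSF left out as it is listed at or near 0. PSAP is at the top in both panels, while CTSS, CTSH and CTSA in the CLEC16A panel and CTSB and CTSZ in the NKX2-2 panel show KO points far from WT points.

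In CLEC16A KO cells most of the lysosomal genes were higher than in WT. Of 40 members tested, 28 rose, 2 fell (IDUA and PPT1) and 10 did not pass the test (edgeR quasi-likelihood, Benjamini-Hochberg adjusted over all 19958 genes tested, threshold 0.05). Of all genes tested, 23.7% rose and 21.3% fell, 45.0% together. The median log2 fold change was 0.41 over the members tested and -0.01 over all genes. At least 2-fold rises were seen in 6 members (8.74% of all genes), led by 2 cysteine cathepsins. The KO libraries lay wholly above the WT libraries for 28 members (27.4% of all genes) and wholly below for 3 (26.4%). Because the members are abundant, the share was also taken among genes with a mean of at least 10 CPM, a limit chosen after seeing the data: there 28 of 37 members rose and 2 fell, against 30.6% and 25.4% of 11077 genes. On the deposited TPM with limma, 22 members rose and 3 fell, while 2993 rose and 4631 fell of all 17852 genes tested. Higher calls there made up 39.3% of all called genes, against 52.7% on counts, with the median of all genes lower by 0.11 (log2). The members' summed share of listed TPM was 0.668%, 0.643% and 0.644% in KO libraries and 0.516%, 0.500% and 0.502% in WT libraries.

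**Figure D2:**
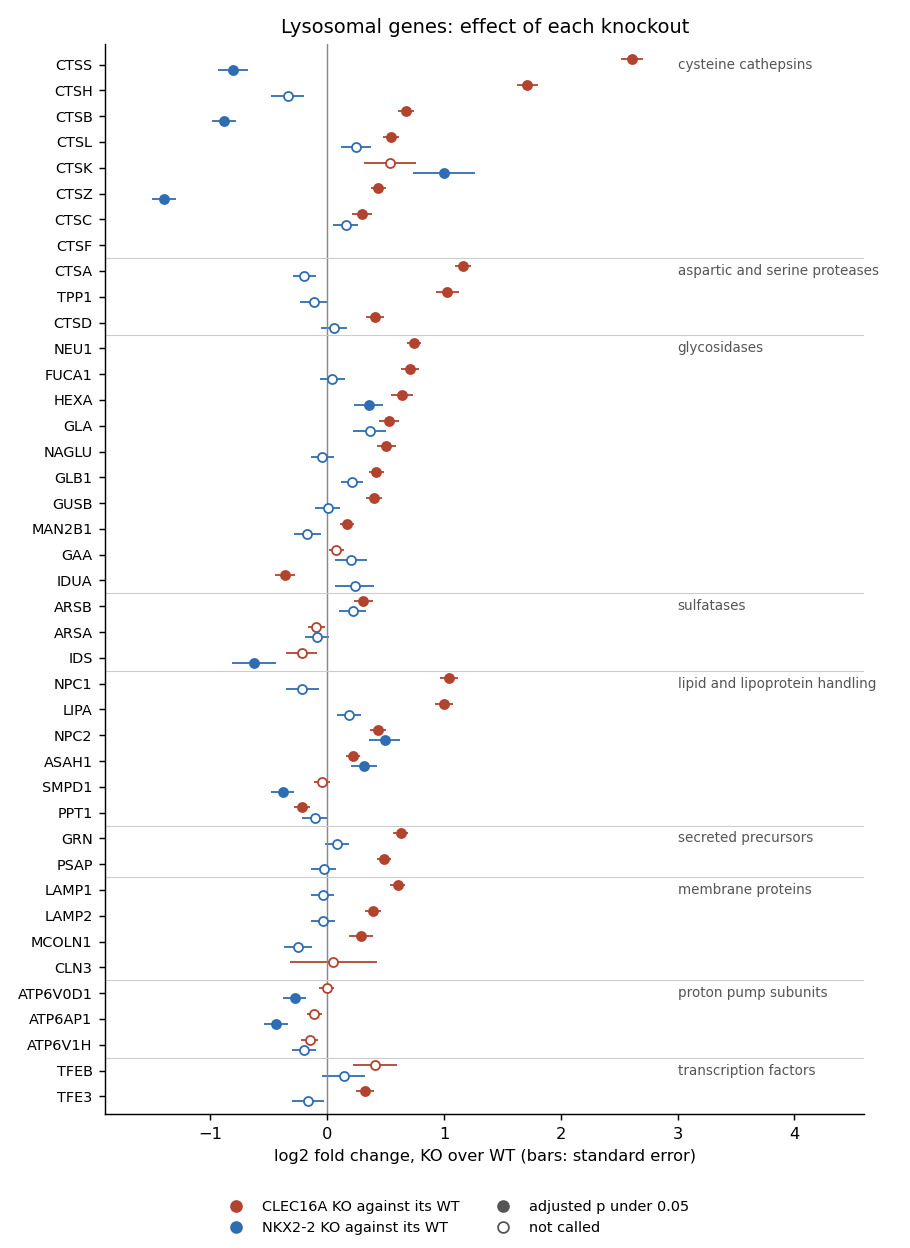
Log2 fold change of KO over WT for each member, grouped by role, in the CLEC16A (red) and NKX2-2 (blue) experiments, with bars for the standard error and filled points for adjusted p under 0.05 (edgeR). Red points lie mostly right of 0 in every role but the proton pump subunits and sulfatases, and the blue points of CTSZ, CTSB and CTSS lie on the opposite side of 0 from the red ones.

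The cysteine cathepsins, papain-like proteases of the lysosome, included the 2 members with the largest changes. All but CTSK of the 7 tested rose, and CTSK, the collagen-degrading protease of osteoclasts, was not called (log2 fold change 0.54, SE 0.23, adjusted p = 0.0573). The KO libraries lay wholly above WT for CTSK, at means of 4.67 and 3.22 CPM. It was called higher in 3 alternatives: no count filter (adjusted p = 0.0441), the replicate block (0.0412) and without WT replicate 1 (0.0411). CTSS, an elastase known for trimming the invariant chain in antigen presentation (chromosome 1, 150730196 to 150765957 in GENCODE v29, hg38), was at 81.1, 94.4 and 104.7 CPM in KO libraries and at 15.6, 15.2 and 15.1 CPM in WT libraries. The KO libraries were several times higher than every WT library (log2 fold change 2.61, SE 0.09, adjusted p = 4.52e-16). CTSH, an aminopeptidase (chromosome 15, 78921058 to 78949574), was at 86.1, 87.1 and 90.8 CPM in KO libraries, against 25.1, 24.1 and 31.2 CPM in WT libraries. The groups were far apart (log2 fold change 1.71, SE 0.09, adjusted p = 3.42e-13). CTSB, an abundant endo- and exopeptidase, was at 909.6, 949 and 1073 CPM in KO and 610.3, 585 and 641 CPM in WT libraries. No KO library reached down to the WT range (log2 fold change 0.67, SE 0.07, adjusted p = 2.61e-08). CTSZ, a carboxypeptidase, was at 265, 269 and 264 CPM in KO and 191, 214 and 184 CPM in WT libraries, which do not overlap (log2 fold change 0.44, SE 0.07, adjusted p = 7.90e-06). CTSL, a broad endopeptidase, rose by 0.55 on the log2 scale, and CTSC, an activator of granule serine proteases, by 0.30, a call lost without KO replicate 1 (adjusted p = 0.0539) and on log2(TPM + 1) (0.18, adjusted p = 0.246, limma).

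Other proteases rose too. CTSA, a serine carboxypeptidase that also shields NEU1 and beta-galactosidase in a complex, was at 225.2, 225.4 and 223 CPM in KO libraries, against 103, 90.1 and 108 CPM in WT libraries. The KO libraries were nearly equal and all above WT (log2 fold change 1.16, SE 0.07, adjusted p = 3.85e-12). TPP1, a tripeptidyl peptidase lost in a childhood neuronal ceroid lipofuscinosis, was at 273, 272 and 336 CPM in KO and 159, 124 and 149 CPM in WT libraries. KO replicate 3 was the highest, and the groups did not overlap (log2 fold change 1.03, SE 0.10, adjusted p = 5.58e-07). CTSD, the main aspartic protease, rose by 0.41 on counts, but by 0.24 on log2(TPM + 1) with adjusted p = 0.320 in limma. Exons of CTSA overlap NEURL2 on the opposite strand over 17.7% of their bases, and those of TPP1 and CTSD overlap same-strand models over 11.6% and 41.7%. Whether counting used strand is not stated, and these counts are uncertain to that extent.

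**Figure D3:**
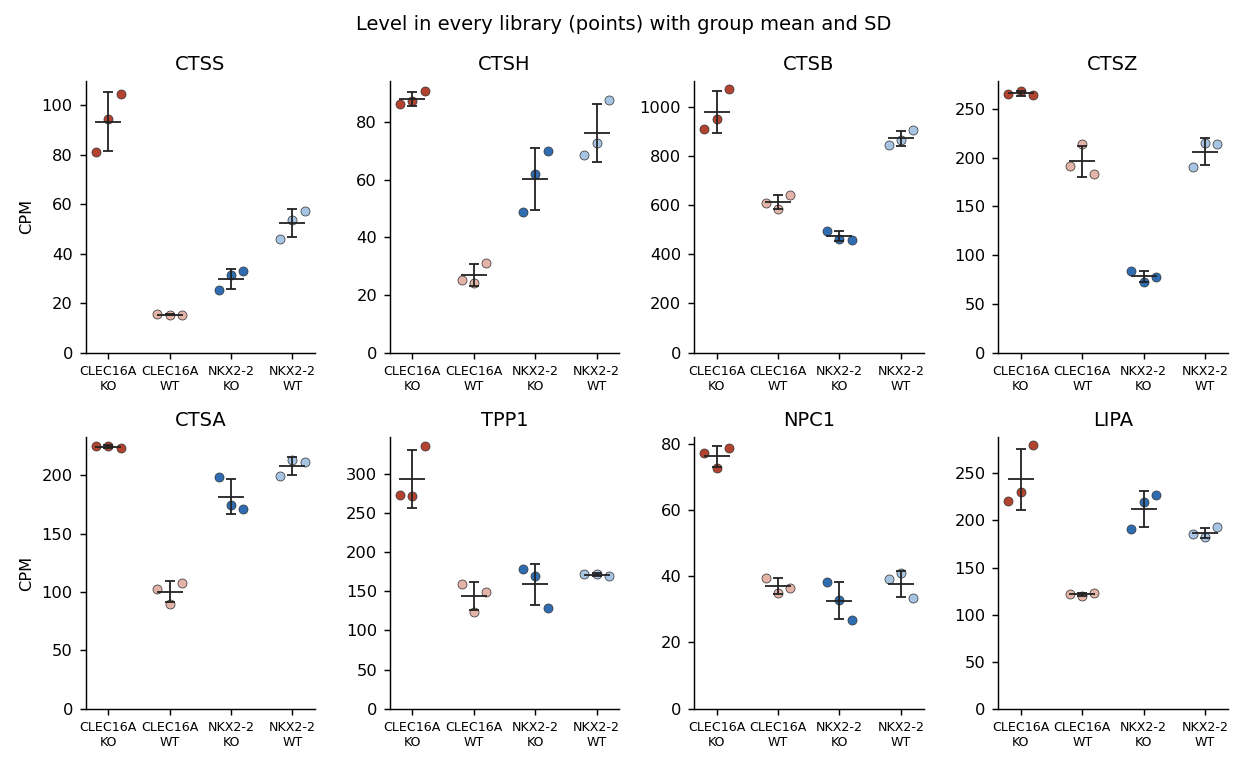
CPM of 8 leading members in every library (points), with group mean (bar) and SD (n = 3 libraries), KO left of WT in each experiment and each axis starting at 0. CTSS, CTSH, CTSA, TPP1, NPC1 and LIPA are high in the 3 CLEC16A KO libraries, and CTSB and CTSZ are high in CLEC16A KO and low in NKX2-2 KO libraries relative to their WT.

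Among the 10 glycosidases, which remove sugars from glycoproteins, glycolipids and glycosaminoglycans, 8 rose and 1 fell. NEU1, the lysosomal sialidase, was at 200.7, 203 and 205 CPM in KO libraries and at 122, 127 and 115 CPM in WT libraries. The groups stood well apart (log2 fold change 0.74, SE 0.06, adjusted p = 1.34e-09). FUCA1, the alpha-fucosidase, was at 58.5, 64.6 and 67.5 CPM in KO and 38.5, 37.8 and 40.3 CPM in WT libraries, again with no overlap (log2 fold change 0.71, SE 0.08, adjusted p = 7.57e-08). HEXA, GLA, NAGLU, GLB1 and GUSB rose by 0.64, 0.53, 0.51, 0.42 and 0.40 on the log2 scale. These are the enzymes deficient in Tay-Sachs disease, Fabry disease, Sanfilippo syndrome type B, GM1 gangliosidosis and Sly syndrome. MAN2B1, an alpha-mannosidase, rose by 0.17 (adjusted p = 0.0332), a call lost without KO replicate 1 or any WT replicate, and had a log2 fold change of -0.01 on log2(TPM + 1). IDUA, the iduronidase of dermatan and heparan sulfate breakdown, fell by 0.36 on the log2 scale (SE 0.09, adjusted p = 0.00197). It was at 26.8, 32.9 and 28.7 CPM in KO libraries, below the 37.3, 39.7 and 36.4 CPM of WT libraries. Exons of IDUA and HEXA overlap opposite-strand models over 13.35% and 10.1% of their bases. Those of MAN2B1 and NAGLU overlap same-strand models over 13.1% and 12.6%, with the same uncertainty of the counts. GAA, the acid glucosidase that degrades glycogen, was at 276, 281 and 256 CPM in KO and 258, 252 and 261 CPM in WT libraries, which overlap (log2 fold change 0.08, SE 0.06, adjusted p = 0.325).

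The sulfatases moved little. ARSB rose by 0.31 on the log2 scale (adjusted p = 0.00423), though not on the TPM (adjusted p = 0.197, limma). The log2 fold change of ARSA, the sulfatidase, was -0.09 (SE 0.07, adjusted p = 0.342), and that of IDS, the iduronate sulfatase, -0.22 (SE 0.13, adjusted p = 0.191).

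Of the 6 genes of lipid and lipoprotein handling, 4 rose and 1 fell. NPC1, which exports cholesterol from the lysosome, was at 77.2, 72.6 and 78.6 CPM in KO libraries, against 39.5, 34.9 and 36.6 CPM in WT libraries. The KO libraries were all far above WT (log2 fold change 1.04, SE 0.07, adjusted p = 1.03e-10). LIPA, the acid lipase that frees that cholesterol from its esters, was at 221, 230.0 and 280.4 CPM in KO and 122, 120.1 and 123 CPM in WT libraries. All KO libraries were above all WT libraries, with KO replicate 3 the highest (log2 fold change 1.00, SE 0.08, adjusted p = 3.53e-10). NPC2, the soluble partner of NPC1, rose by 0.43 on the log2 scale. ASAH1, the acid ceramidase, rose by 0.22, but by 0.02 on the TPM (adjusted p = 0.812, limma). PPT1, which removes palmitate from proteins, fell by 0.22 on the log2 scale (SE 0.07, adjusted p = 0.0111), and this call was lost without WT replicate 1 or 3 (adjusted p = 0.0599 and 0.0723). Exons of PPT1 overlap CAP1 on the opposite strand over 23.4% of their bases. SMPD1, the acid sphingomyelinase, was at 81.7, 79.2 and 73.2 CPM in KO and 79.8, 82.0 and 79.0 CPM in WT libraries, an overlap with no call (adjusted p = 0.663).

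Both secreted precursors rose: GRN, which encodes progranulin, by 0.63 and PSAP by 0.49 on the log2 scale. LAMP1 and LAMP2, the heavily glycosylated coat proteins of the limiting membrane, rose by 0.60 and 0.40. LAMP1 was at 375, 358 and 364 CPM in KO libraries and 239, 230.2 and 253 CPM in WT libraries, without overlap. MCOLN1, the calcium channel TRPML1, rose by 0.29 (adjusted p = 0.0240), with groups that overlapped, and the call was lost without KO replicate 1, KO replicate 2 or WT replicate 2 (adjusted p = 0.0991, 0.104 and 0.143). It was also lost with upper-quartile scaling (adjusted p = 0.0856) and on log2(TPM + 1), where the log2 fold change was 0.095 (adjusted p = 0.456, limma). CLN3, a membrane protein of the late endosome, is short of counts for its TPM (25 to 38 counts per library) and its counts say little, while its TPM rose by 0.57 on log2(TPM + 1) (limma adjusted p = 0.0300). None of the 3 proton pump subunits passed the test on counts: the log2 fold change was -0.00 (SE 0.06) for ATP6V0D1, -0.11 (SE 0.06) for ATP6AP1 and -0.15 (SE 0.07, adjusted p = 0.0974) for ATP6V1H. ATP6V1H was called lower on log2(TPM + 1) (-0.27, adjusted p = 0.0233, limma) and with upper-quartile scaling (-0.23, adjusted p = 0.0144). ATP6AP1 was called lower with upper-quartile scaling (-0.18, adjusted p = 0.0184) and without WT replicate 2 (-0.16, adjusted p = 0.0401). TFE3 rose by 0.32 (SE 0.08, adjusted p = 0.00161), though its TPM gave adjusted p = 0.140 in limma. TFEB was at 4.69, 6.49 and 5.87 CPM in KO and 5.19, 4.13 and 3.52 CPM in WT libraries, which overlap (log2 fold change 0.41, SE 0.19, adjusted p = 0.0867). It was called higher without KO replicate 1 or WT replicate 1 (adjusted p = 0.0468 and 0.0414). Of the 9 tested genes with TCACGTG in a promoter, 6 rose and 0 fell (median log2 fold change 0.31), beside 15 and 2 of 21 genes whose listed promoters lack it (median 0.42).

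Other genes of the pathway were counted from 5 lists. Of all genes tested in this comparison, 23.7% rose and 21.3% fell. Of 29 tested other lysosomal hydrolases, cofactors and membrane proteins, 20 rose (69.0%) and 1 fell (3.45%), with a median log2 fold change of 0.40. GM2A, the GM2 activator, was among them (0.86). Of 18 genes that target enzymes to lysosomes, 7 rose (38.9%) and 0 fell (median 0.15). Among those that rose were the sorting receptor SORL1 (1.94), the mannose 6-phosphate receptor IGF2R (0.65) and the retromer subunit VPS26A (0.44). Of 16 other V-ATPase subunits, 2 rose (12.5%) and 4 fell (25%), with a median of -0.06. ATP6V0E2 had -0.90 and ATP6V1A -0.25. Of 35 autophagy and MiT/TFE control genes, 10 rose (28.6%) and 3 fell (8.57%), with a median of 0.08. The shares of autophagy genes that rose and of V-ATPase subunits that fell lie near those of all genes. The autophagy receptor SQSTM1 had 0.48, and MAP1LC3A, an LC3 homologue, -1.03. Of 4 tested cystatins, inhibitors of cysteine cathepsins, 3 rose, including CST3 (0.86) and CSTB (0.36). CST3 was at 719, 785 and 782 CPM in KO and 395, 461 and 401 CPM in WT libraries.

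Markers of other cell types moved in the same libraries, in which 23.7% of all genes tested rose and 21.3% fell. Summed over 10 islet endocrine markers, levels were 14565 to 16873 CPM in KO libraries and 27905 to 30762 CPM in WT libraries, and 10 of 10 fell. The 8 liver markers summed to 16583 to 18267 CPM in KO and 6506 to 6805 CPM in WT libraries (6 of 8 rose), and the 8 intestine markers to 4365 to 5382 CPM and 797 to 822 CPM (8 of 8 rose). The 10 mesenchyme markers summed to 205 to 243 CPM in KO and 322 to 364 CPM in WT libraries (7 of 10 fell). The 7 endothelium markers summed to 10.8 to 13.6 CPM in KO and 21.1 to 22.9 CPM in WT libraries (1 of 4 tested rose and 2 fell), and 5 of 6 proliferation markers rose (383 to 412 CPM in KO and 298 to 305 CPM in WT libraries). For macrophages and leukocytes, which express CTSS strongly, the 10 markers summed to 86.3 to 124 CPM in KO and 162 to 196 CPM in WT libraries, most of it LYZ. PTPRC, the defining leukocyte marker, was at 0 in all 3 KO libraries, and TYROBP was at most 0.0642 CPM there. Both were among the 4 markers of that list that were not tested, so no change from WT can be read from them. Of the 6 tested markers of that list, 0 rose and 3 fell (AIF1, LYZ and MRC1), while FCER1G, CSF1R and ITGAM had log2 fold changes of 0.65 (SE 0.35), 0.54 (SE 0.48) and 0.39 (SE 0.36), at mean levels of 1.51, 0.750 and 1.21 CPM in KO and 0.964, 0.514 and 0.920 CPM in WT libraries. The part of the macrophage, liver and intestine markers in the rise of the lysosomal genes was not tested.

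In NKX2-2 KO cells the lysosomal genes showed no common direction. Of 38 members tested, 4 rose (ASAH1, HEXA, NPC2 and CTSK), 7 fell (CTSB, CTSS, CTSZ, ATP6AP1, ATP6V0D1, IDS and SMPD1) and 27 did not pass the test, while 16.6% of all 17436 genes tested rose and 16.8% fell, 33.4% together. KO libraries lay wholly above WT for 5 members (23.1% of all genes) and wholly below for 9 (22.5%). The share of members called lies near that background. The median log2 fold change was -0.04 over the members tested and 0.03 over all genes. Without both libraries numbered 3, 6 members rose and 7 fell, while 2883 rose and 3102 fell of all 17747 genes tested. Single libraries moved these counts: 2 rose and 4 fell without KO replicate 2, and 1 rose without WT replicate 1 and likewise without WT replicate 2. Of all 17790 genes tested without KO replicate 2, 2168 rose and 2177 fell. Without WT replicate 1 or 2, 2121 of 17842 and 2132 of 17795 genes rose. The members took 0.549%, 0.508% and 0.469% of listed TPM in KO libraries and 0.575%, 0.590% and 0.542% in WT libraries. Their summed TPM was 2422, 2341 and 2218 in KO and 2454, 2447 and 2466 in WT libraries. Listed genes held 44.1%, 46.0% and 47.2% of the full TPM total in KO libraries. In WT libraries they held 42.7%, 41.4% and 45.5%, and the members' share depends on this total too.

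Of the 7 cysteine cathepsins tested, 3 fell, 1 rose and 3 were not called. CTSZ was at 84.1, 72.2 and 77.9 CPM in KO libraries, against 190.4, 215 and 213 CPM in WT libraries. Every KO library was far below every WT library (log2 fold change -1.40, SE 0.10, adjusted p = 4.88e-07). CTSB was at 496, 464 and 458 CPM in KO and 845, 863 and 906 CPM in WT libraries. The groups were far apart (log2 fold change -0.88, SE 0.10, adjusted p = 2.29e-05). CTSS was at 25.3, 31.3 and 32.9 CPM in KO and 46.0, 53.5 and 57.3 CPM in WT libraries, without overlap (log2 fold change -0.81, SE 0.13, adjusted p = 0.000372). These 3 calls held in every alternative run. CTSK was at 2.71, 2.15 and 2.37 CPM in KO and 1.20, 1.31 and 1.07 CPM in WT libraries, low in both groups but without overlap (log2 fold change 1.00, SE 0.26, adjusted p = 0.0107). CTSH was at 48.6, 62.1 and 69.9 CPM in KO and 68.5, 72.6 and 87.4 CPM in WT libraries, which overlap (log2 fold change -0.34, SE 0.14, adjusted p = 0.0826). CTSH was called lower in 6 alternatives: DESeq2 (adjusted p = 0.0491), no count filter (0.0137), the replicate block (0.00101), listed TPM scaled to one total (0.0159), without KO replicate 3 (0.0164) and without both libraries numbered 3 (0.0328).

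Of the 3 proton pump subunits, 2 fell, each with a call that did not hold in every alternative. ATP6AP1, an accessory subunit, was at 277, 242 and 232 CPM in KO libraries, against 340.2, 337 and 341 CPM in WT libraries. The WT libraries were almost equal and all above KO (log2 fold change -0.44, SE 0.10, adjusted p = 0.00500). On log2(TPM + 1) it was -0.38 with adjusted p = 0.129 in limma. ATP6V0D1 fell by 0.28 on the log2 scale with an adjusted p of 0.0479, and this call was lost without any of the 5 libraries KO replicate 2, KO replicate 3 and WT replicates 1, 2 and 3 (adjusted p from 0.0777 to 0.1802). ATP6V1H (log2 fold change -0.20, SE 0.10, adjusted p = 0.170). SMPD1 was at 106, 94.6 and 92.1 CPM in KO and 128, 124 and 129 CPM in WT libraries, with no overlap. It fell by 0.38 on the log2 scale (SE 0.10, adjusted p = 0.00868), but not past the threshold without KO replicate 2 (adjusted p = 0.0509).

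Among the lipid genes, NPC2 was at 145, 163 and 190 CPM in KO and 107, 105 and 142 CPM in WT libraries. The lowest KO library was just above the highest WT library (log2 fold change 0.49, SE 0.14, adjusted p = 0.0137), lost without WT replicate 1 or 2 (adjusted p = 0.0856 and 0.0787). ASAH1 rose by 0.31 (adjusted p = 0.0464), a call lost without KO replicate 2, KO replicate 3, WT replicate 1 or WT replicate 2 (adjusted p from 0.133 to 0.199). HEXA was at 49.9, 58.4 and 55.4 CPM in KO and 39.7, 39.0 and 49.4 CPM in WT libraries, nearly touching. It rose by 0.36 on the log2 scale (SE 0.12, adjusted p = 0.0411), which was lost without KO replicate 2, KO replicate 3, WT replicate 1 or WT replicate 2 (adjusted p from 0.0622 to 0.209). IDS was at 10.2, 9.25 and 6.81 CPM in KO and 15.04, 15.01 and 10.4 CPM in WT libraries, again nearly touching (log2 fold change -0.63, SE 0.19, adjusted p = 0.0208). Without KO replicate 2, KO replicate 3, WT replicate 1 or WT replicate 2 the adjusted p was 0.0509 to 0.0775. HEXA and IDS have under 0.25 of the usual counts for their TPM and length in both experiments, so their counts are uncertain. NEU1, in the HLA region of chromosome 6, had 338, 1 and 0 counts in KO and 3, 0 and 1 counts in WT libraries and was not tested. Its deposited TPM was 10.8, 6.56 and 1.99 in KO and 5.02, 3.17 and 7.20 in WT libraries.

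Most other members were not called. GLA (log2 fold change 0.36, SE 0.14, adjusted p = 0.0706, edgeR) was called higher in 5 alternatives, among them the replicate block (0.00252). GLB1 (0.21, SE 0.10, adjusted p = 0.114), with KO libraries wholly above WT, was called higher in 4, among them the replicate block (0.0256). CTSL and GAA were called higher in 2 each and ARSB in 1, and CTSA and MCOLN1 were called lower in 2 each. LAMP1 had a log2 fold change of -0.04 (SE 0.10), PSAP of -0.03 (SE 0.11), GRN of 0.08 (SE 0.10) and CTSD of 0.06 (SE 0.11), none of them called. TFEB and TFE3 had 0.14 (SE 0.19) and -0.17 (SE 0.14), also not called. Of the 7 tested genes with TCACGTG in a promoter, 0 rose and 1 fell (median log2 fold change -0.04). Beside them, 1 rose and 4 fell of 21 genes whose listed promoters lack it (median 0.004). The other lists are set beside all genes tested, of which 16.6% rose and 16.8% fell. Of 28 hydrolases and membrane proteins, 6 rose (21.4%) and 7 fell (25%). Among them were LGMN (-0.56), an asparaginyl endopeptidase, and ACP5 (1.63), the tartrate-resistant phosphatase of osteoclasts and macrophages. ACP5 was low, at 3.45 CPM in KO and 1.11 CPM in WT libraries. Its log2 fold change in CLEC16A KO was 1.76, and the difference of effects was not called (0.12, SE 0.39). Of 17 targeting genes 1 rose (5.88%) and 4 fell (23.5%), including SORL1 (-1.19) and SCARB2 (-0.39), the receptor for glucocerebrosidase. Of 16 V-ATPase subunits 0 rose and 3 fell (18.75%, near the share of all genes), including ATP6V0E2 (-0.64) and ATP6V1A (-0.41). Of 35 autophagy and MiT/TFE genes 3 rose (8.57%) and 6 fell (17.1%, near the share of all genes). The melanosomal glycoprotein GPNMB was at 1.27 and ATG9A at -0.88. Of 4 cystatins 3 rose, CST3 by 0.41. CST1 and CST2 also rose but were low, at 1.44 and 1.29 CPM in KO and 0.409 and 0.531 CPM in WT libraries. The cystatins tested differ between the experiments, with CST2 tested here and CST5 in the CLEC16A experiment.

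**Figure D4:**
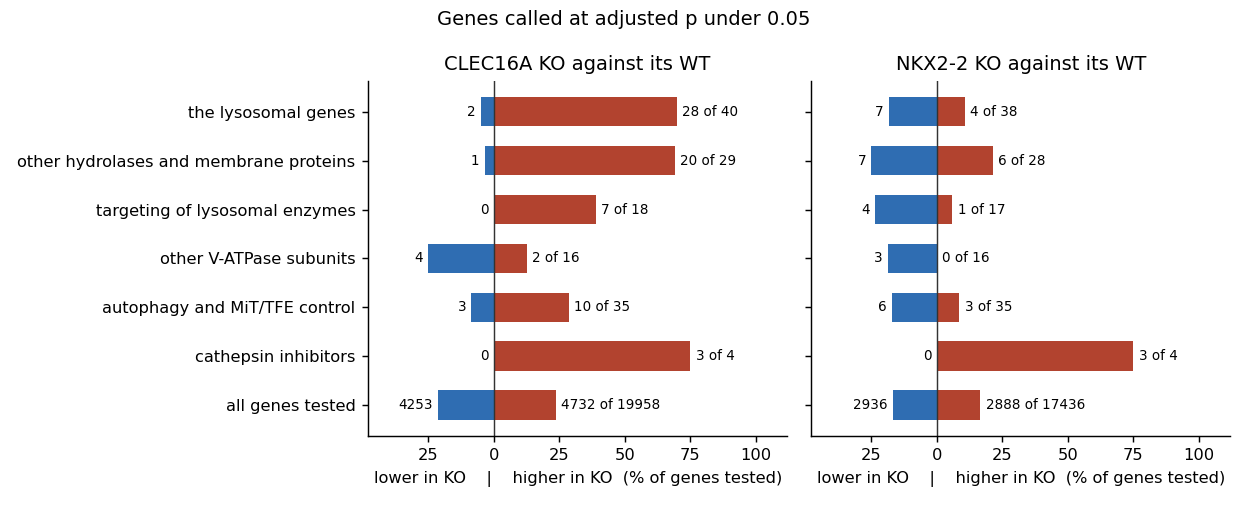
Percent of tested genes called higher (red, right) and lower (blue, left) in KO at adjusted p under 0.05 (edgeR) for the lysosomal genes, the 5 pathway lists and all genes, with the numbers of genes beside the bars. In the CLEC16A panel 28 of 40 lysosomal genes and 20 of 29 other hydrolases are higher, and in the NKX2-2 panel 4 of 38 and 6 of 28 are.

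Several marker lists moved in these libraries too, in which 16.6% of all genes tested rose and 16.8% fell. The 10 mesenchyme markers summed to 7094 to 8111 CPM in NKX2-2 KO and 2767 to 3070 CPM in WT libraries, and 10 of 10 rose. The 7 endothelium markers summed to 68.6 to 77.1 CPM in KO and 22.6 to 27.8 CPM in WT libraries (5 of 6 tested rose and 1 fell). Of 6 proliferation markers 1 rose and 1 fell, near the shares of all genes. Of 8 liver markers 2 rose and 3 fell, and their sums overlapped (10026 to 12333 CPM in KO and 10002 to 11553 CPM in WT libraries). Islet markers summed to 1117 to 1181 CPM in KO and 3385 to 3874 CPM in WT libraries (6 of 10 fell and 2 rose), and 6 of 7 tested intestine markers fell (1008 to 1020.1 CPM in KO and 1592 to 1706 CPM in WT libraries). The macrophage and leukocyte markers summed to 303 to 316 CPM in KO and 293 to 304 CPM in WT libraries, nearly all LYZ, with 2 of 5 tested rising and AIF1 at 0. AIF1, like NEU1, lies in the HLA region. The part of these cell types in the changes was not tested.

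The CLEC16A and NKX2-2 effects were then compared directly, as the interaction in 1 edgeR fit of all 12 libraries. Of 40 members tested, 19 had a higher and 1 a lower effect in CLEC16A KO than in NKX2-2 KO, while 20.4% and 17.8% of all 20494 genes tested did, 38.2% together. The difference was at least 2-fold for 7 higher members (11.3% of all genes). The median difference was 0.33 over members and -0.04 over all genes. With upper-quartile scaling 14 members were higher and 1 lower, while 3517 were higher and 4703 lower of all 20494 genes tested. The median of all genes then shifted by -0.12, and the share of higher among all calls was 42.8%, against 53.4% with TMM. Among the members called, CTSS differed most, by 3.41 (SE 0.17, adjusted p = 4.73e-13), with log2 fold changes of 2.61 in CLEC16A KO and -0.81 in NKX2-2 KO. CTSH differed by 2.05 (SE 0.18), CTSZ by 1.83 (SE 0.13) and CTSB by 1.55 (SE 0.12). CTSB, CTSS and CTSZ were the members called in opposite directions, higher in CLEC16A KO and lower in NKX2-2 KO. CTSA, NPC1, TPP1 and LIPA differed by 1.35, 1.25, 1.13 and 0.81. IDUA was the 1 gene with the lower effect in CLEC16A KO (-0.61, SE 0.20, adjusted p = 0.0180), lost without replicate 1 of CLEC16A KO or of NKX2-2 KO (adjusted p = 0.0527 and 0.0702). ASAH1, HEXA and NPC2 rose in both experiments, and their effects differed by -0.10 (SE 0.13), 0.28 (SE 0.15) and -0.07 (SE 0.16), none called. The pairs of groups do not share libraries.

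**Figure D5:**
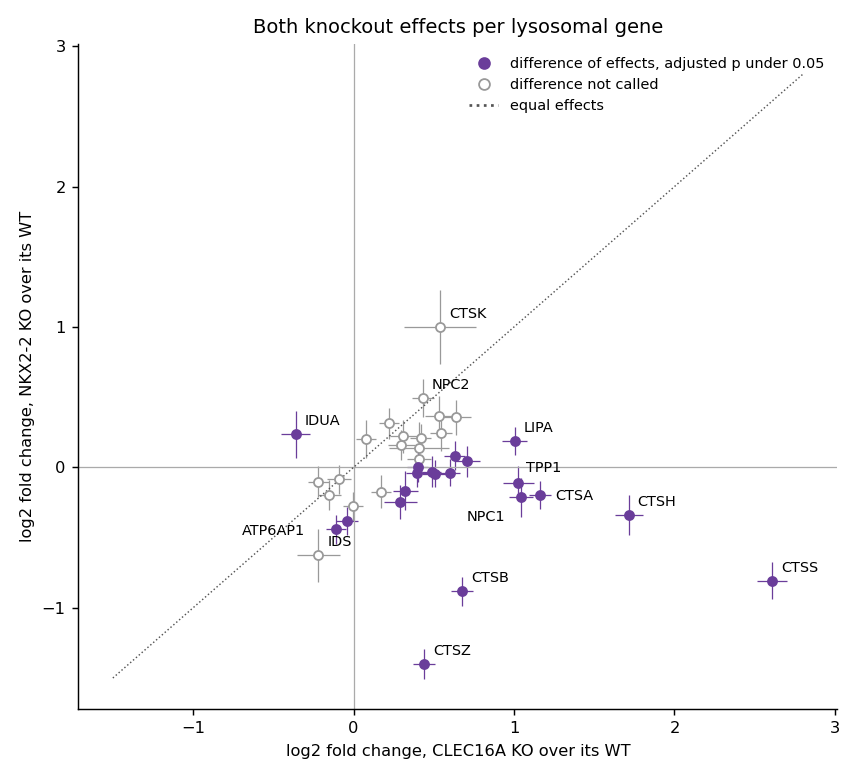
Log2 fold change of KO over WT per member in the CLEC16A (x axis) and NKX2-2 (y axis) experiments, with bars for standard errors, a dotted line for equal effects and filled points where the difference of effects passed adjusted p under 0.05 (edgeR). CTSS, CTSH, CTSB and CTSZ lie farthest below the dotted line, at differences of 3.41, 2.05, 1.55 and 1.83.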

How the data were processed

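Both experiments had deposited tables of raw counts per Ensembl gene and of TPM, made by the authors. The submitters' processing notes name hg38 and the tools StringTie 2.1.7, HISAT2 2.2.1 and fastp 0.22.0. How reads were counted, with which annotation and whether by strand, is not given in the sources used here. Members and lists were chosen with earlier results of these data known. Rows for the Y chromosome's pseudoautosomal copies, 45 in number, were not used.

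Counts were tested within each experiment, 3 libraries against 3, with R 4.3.3 and edgeR 4.0.16, using TMM scaling, filterByExpr and the robust quasi-likelihood test, and p-values were Benjamini-Hochberg adjusted over all genes tested. SE was obtained from the log2 fold change and its F statistic. CPM use TMM-scaled library sizes. Deposited TPM were tested with limma 3.58.1 on log2(TPM + 1) after dropping genes whose mean was under 1 TPM, a scale that understates changes of low genes. Results were also computed leaving out each library, with other filters and pseudocounts, with upper-quartile or RLE scaling, with DESeq2 1.42.0, with all libraries fitted together and with a replicate block. Leaving out both NKX2-2 libraries numbered 3 and scaling listed TPM to one total were chosen after seeing the data. The fits were tested on simulated counts with changes of at least 2-fold, which does not show how well smaller changes are recovered. Values in every library are given for up to 8 members per comparison with the largest change among those called, provided that groups do not overlap and the higher one averages 5 CPM or more, and for members called in opposite directions. Values of GAA, LAMP1, SMPD1 in the CLEC16A experiment, IDUA, TFEB, CTSH in the NKX2-2 experiment, CTSK and CST3 were added after they were seen. List examples are among the 3 with the smallest p, some of which are not reported here. Exonic overlaps come from GENCODE v29, in which exons of 16 members overlap another gene.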

Additional observations from a re-analysis of the deposited data

Results flagged for a closer look

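The interaction test found 20 members whose CLEC16A effect differed from their NKX2-2 effect at adjusted p under 0.05 (edgeR). Differences are on the log2 scale, CLEC16A effect minus NKX2-2 effect. Among the proteases they were 3.41 for CTSS, 2.05 for CTSH, 1.83 for CTSZ, 1.55 for CTSB, 1.35 for CTSA and 1.13 for TPP1. Among the glycosidases they were 0.66 for FUCA1, 0.54 for NAGLU, 0.39 for GUSB and -0.61 for IDUA. The lipid genes NPC1, LIPA and SMPD1 had 1.25, 0.81 and 0.33. The precursors GRN and PSAP had 0.54 and 0.51, and the membrane proteins LAMP1, MCOLN1 and LAMP2 had 0.63, 0.53 and 0.42. TFE3 had 0.48 and the pump subunit ATP6AP1 0.32. For SMPD1 and ATP6AP1 the positive difference comes with a fall in NKX2-2 KO and no call in CLEC16A KO. The calls of ATP6AP1 and SMPD1 were lost when any of 9 single libraries was left out for each, and that of TFE3 for any of 4. GUSB was lost without NKX2-2 KO replicate 2 (adjusted p = 0.0677), and IDUA without replicate 1 of CLEC16A KO or of NKX2-2 KO (adjusted p = 0.0527 and 0.0702). Upper-quartile scaling gave no call for GUSB, LAMP2, TFE3, ATP6AP1 and SMPD1. The experiments differ in depth and in the listed share of TPM, and their part in these differences was not tested.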

How the results depend on the processing

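In CLEC16A KO, 18 of the 28 members called higher were called in every alternative, and 25 when any 1 library was left out; leaving out 1 library gave 26 to 29 higher and 1 to 3 lower members. LAMP2 and GUSB were lost on TPM without a filter (adjusted p = 0.0887 and 0.0653, limma), and NEU1 in one fit of all 12 libraries (adjusted p = 0.535), which includes its near-zero NKX2-2 counts. Members called lower were 4 with upper-quartile scaling and 1 in one fit of all 12 libraries. Genes called higher were 4732 on counts, but 2993 with limma on log2(TPM + 1), 2947 with log2(TPM + 0.1) and 2841 without a filter, and MAN2B1 then had -0.012 under each of the 3 settings. In NKX2-2 KO, CTSB, CTSS and CTSZ among the 7 lower members were called in every alternative, and CTSK among the 4 higher ones in the 16 alternatives that tested it, which leave out the filtered TPM fits. Members called higher were 2 with RLE scaling, without a count filter, with limma on either TPM scale and on listed TPM scaled to one total, and 1 on TPM without a filter; leaving out 1 library gave 1 to 6 higher and 4 to 9 lower. TPM without a filter left 3 members lower, with 1624 genes higher and 1623 lower, against 2888 and 2936 on counts. Scaled TPM gave 1453 genes higher, 36.8% of calls against 49.6%, with the median of all genes lower by 0.10. In the difference of effects, leaving out 1 library gave 15 to 22 higher and 0 to 1 lower members, and 13 of 19 were called in every alternative. CLN3 had -0.82 there on counts and 0.91 on log2(TPM + 1). The cause of these changes was not tested.

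Deviations of same-numbered libraries correlated at 0.011, 0.011 and -0.030 in the CLEC16A experiment and at 0.109, 0.025 and 0.321 in the NKX2-2 experiment. The NKX2-2 libraries numbered 3 thus deviated together, but not every pair exceeded 0.1, and not every library correlated best with its own number, so pairing was not taken as part of the design. With a replicate block, 29 members were higher and 2 lower in CLEC16A KO, against 4626 and 4137 of all 19958 genes tested. In NKX2-2 KO 8 members were higher and 10 lower, against 4077 and 3960 of all 17436 genes tested. In the difference 23 members were higher and 2 lower, against 4681 and 4208 of all 20494 genes tested. NEU1 (-5.89) was among the members lower in the difference, which rests on its near-zero NKX2-2 counts. Without the members short of counts, 27 were higher in CLEC16A KO and 3 in NKX2-2 KO. Low counts limit CLN3, CTSK, TFEB and, in the NKX2-2 experiment, NEU1.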
